A study of Mus musculus with 3 samples.

Results

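The genes described here encode the CD3 chains and the constant regions of the T cell receptor. They were chosen by symbol, as Cd3e, Cd3d, Cd3g, Cd247, Trac, Trbc1, Trbc2, Trdc and Trgc4, and all 9 were found among the 25906 genes of the files. Their unique molecular identifier (UMI) counts were read in 21113 sorted NK cells of C57BL/6 mice that fall into 6 groups, lung and blood of 3 droplet libraries. The libraries were made from naive wild-type female mice at 9 weeks of age, from mice killed 6 h after intravenous injection of PyMT cells, a mammary tumor cell line, and from mice killed 14 days after it. All groups share the wild-type genotype, the labelled age of 9 weeks and a sort for CD45+ cells that carry NK1.1 and NKp46 and lack lineage markers. That lineage cocktail held antibodies to CD3ε, TCRβ and CD5. Lung and blood of a library were told apart by hashtag antibodies, and cells with the tag B0304 were taken for lung cells and those with B0306 for blood cells, since the methods name tissues and tags in that order. The mice of a time point share 1 library and were not told apart, so no test was made. All intervals (95%) cover counting error only, since a group has no replicate.

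After a filter on gene number (800 to 5000) and on mitochondrial share (up to 6%), there were 3676 cells in naive lung, 4367 in naive blood, 4680 in 6 h lung, 2746 in 6 h blood, 3575 in 14-day lung and 2069 in 14-day blood. The groups held 16936897 to 35922737 UMIs, with a median per cell of 5909.5 in naive lung to 7524 in 14-day blood. Transcripts of Ncr1 and Klrb1c, which encode the receptors NKp46 and NK1.1 used for the sort, were found in 98.2% and 99.2% of cells with fewer than 2 CD3 genes. Between 7 and 16 barcodes were shared by pairs of libraries. Levels are given as CPM, in which the UMIs of a gene are scaled to the same total in each group. Summed markers of red blood cells stood at 1.48 to 2.57 CPM in 5 groups and were higher in 14-day lung, where each of the 3 such genes at 10 CPM or more had a log2 ratio over naive lung of at least 1. Summed myeloid markers stood at 94.5 CPM in 14-day blood and 15.8 to 51.5 elsewhere. Their part in the values below was not tested.

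In a T cell, CD3ε, CD3δ and CD3γ assemble with the zeta chain, the product of Cd247, around a receptor made either of an alpha and a beta chain or of a gamma and a delta chain. The CD3 chains carry the signal that the variable receptor chains cannot send themselves. NK cells need no T cell receptor, but they use the zeta chain as a signalling partner of NKp46. Constant-region transcripts without a rearranged variable region are known from lymphoid cells other than T cells.

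Of the CD3 genes, Cd3g (chr9:44969572-44980431, minus strand, GRCm38) and Cd3d (chr9:44981786-44987339, plus strand) are neighbours that run away from each other, with 1355 bases between their starts, and Cd3e (chr9:44998740-45009627, minus strand) lies 11401 bases beyond the end of Cd3d. Because Cd3d and Cd3g were found together in many cells that had no Cd3e, the promoters of the 3 genes are shown, 250 bases before to 50 after the start (RefSeq, GRCm38.p6, 5′ to 3′ on the strand of the gene). Capitals mark every match, on either strand, to TGTGGT (RUNX), CTTTGNT (TCF/LEF), AGGAAG (ETS), CAGNTG (an E-box) or TATAAA.
Cd3d, chr9:44981536-44981835, plus strand: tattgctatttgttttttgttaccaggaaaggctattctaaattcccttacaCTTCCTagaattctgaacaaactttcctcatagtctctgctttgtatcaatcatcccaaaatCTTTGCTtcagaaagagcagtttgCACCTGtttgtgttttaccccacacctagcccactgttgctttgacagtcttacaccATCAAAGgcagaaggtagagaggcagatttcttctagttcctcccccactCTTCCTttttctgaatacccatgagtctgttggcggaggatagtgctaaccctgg
Cd3g, chr9:44980382-44980681, minus strand: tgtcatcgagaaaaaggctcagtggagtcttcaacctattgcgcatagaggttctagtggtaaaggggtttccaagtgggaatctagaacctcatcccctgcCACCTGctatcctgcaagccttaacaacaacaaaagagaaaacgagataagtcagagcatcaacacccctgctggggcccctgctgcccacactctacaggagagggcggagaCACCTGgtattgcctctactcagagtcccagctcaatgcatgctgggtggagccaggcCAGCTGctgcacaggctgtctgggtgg
Cd3e, chr9:45009562-45009861, minus strand: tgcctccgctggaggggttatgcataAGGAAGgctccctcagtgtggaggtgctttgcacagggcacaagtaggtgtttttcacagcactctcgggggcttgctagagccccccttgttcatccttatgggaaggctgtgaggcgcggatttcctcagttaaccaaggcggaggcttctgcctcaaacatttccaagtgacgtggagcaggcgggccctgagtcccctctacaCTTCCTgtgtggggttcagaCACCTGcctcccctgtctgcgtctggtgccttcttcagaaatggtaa
The E-box letters were found once in the promoter of Cd3d, 3 times in that of Cd3g and once in that of Cd3e, and 51.4% of 32851 promoters of this length hold them. The ETS letters occurred 2 times in Cd3d and in Cd3e and not in Cd3g, against 35.4% of promoters with a match. The TCF/LEF letters occurred 2 times in Cd3d and not in the other 2 promoters, against 18.6% of promoters. No match to the RUNX or TATA letters was found in the 3 windows, against 16.8% and 13.6% of promoters.

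The receptor constant genes are Trbc1 (chr6:41538218-41539881, plus strand) and Trbc2 (chr6:41546730-41548352, plus strand) for the beta chain, Trac (chr14:54220521-54224206, plus strand) for the alpha chain, Trdc (chr14:54142851-54148868, plus strand) for the delta chain and Trgc4 (chr13:19344558-19352756, plus strand) for a gamma chain, and Cd247 lies at chr1:165788681-165877277 on the plus strand. Trbc1 and Trbc2 are near copies of each other. Of 518 coding bases they differ at 23, and of the 375 bases of the first constant exon at 1. That base is shown with its surroundings in the exon, and the 143 coding bases after it are shown spliced, with the bases that differ between the genes in capitals (GENCODE M21, GRCm38).
Trbc1, chr6:41538448-41538507: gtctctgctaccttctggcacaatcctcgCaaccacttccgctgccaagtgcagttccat
Trbc2, chr6:41546960-41547019: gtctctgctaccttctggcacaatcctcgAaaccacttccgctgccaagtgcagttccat
Trbc1, spliced between chr6:41539114-41539662: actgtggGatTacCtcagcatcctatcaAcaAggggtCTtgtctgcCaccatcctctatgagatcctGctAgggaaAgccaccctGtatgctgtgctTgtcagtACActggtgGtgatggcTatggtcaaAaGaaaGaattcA
Trbc2, spliced between chr6:41547610-41548178: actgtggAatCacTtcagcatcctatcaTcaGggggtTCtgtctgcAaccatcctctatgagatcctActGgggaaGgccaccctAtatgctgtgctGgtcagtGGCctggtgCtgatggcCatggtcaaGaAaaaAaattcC
The untranslated 3′ ends of these genes, where reads of a 3′ library begin, were 50.7% identical over the longer of them. A read that lies wholly in the first exon can be assigned only through that base, so the split of reads between Trbc1 and Trbc2 is uncertain. Trgc1 and Trgc2 were 94.6% identical in their coding bases and 93.2% in their 3′ ends, and their separate counts are uncertain, while Trgc4 was 59.1% identical to Trgc1 and 58.9% to Trgc2 in the 3′ end. Reads shared by copies could be split or dropped in the counting.

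**Figure D1:**
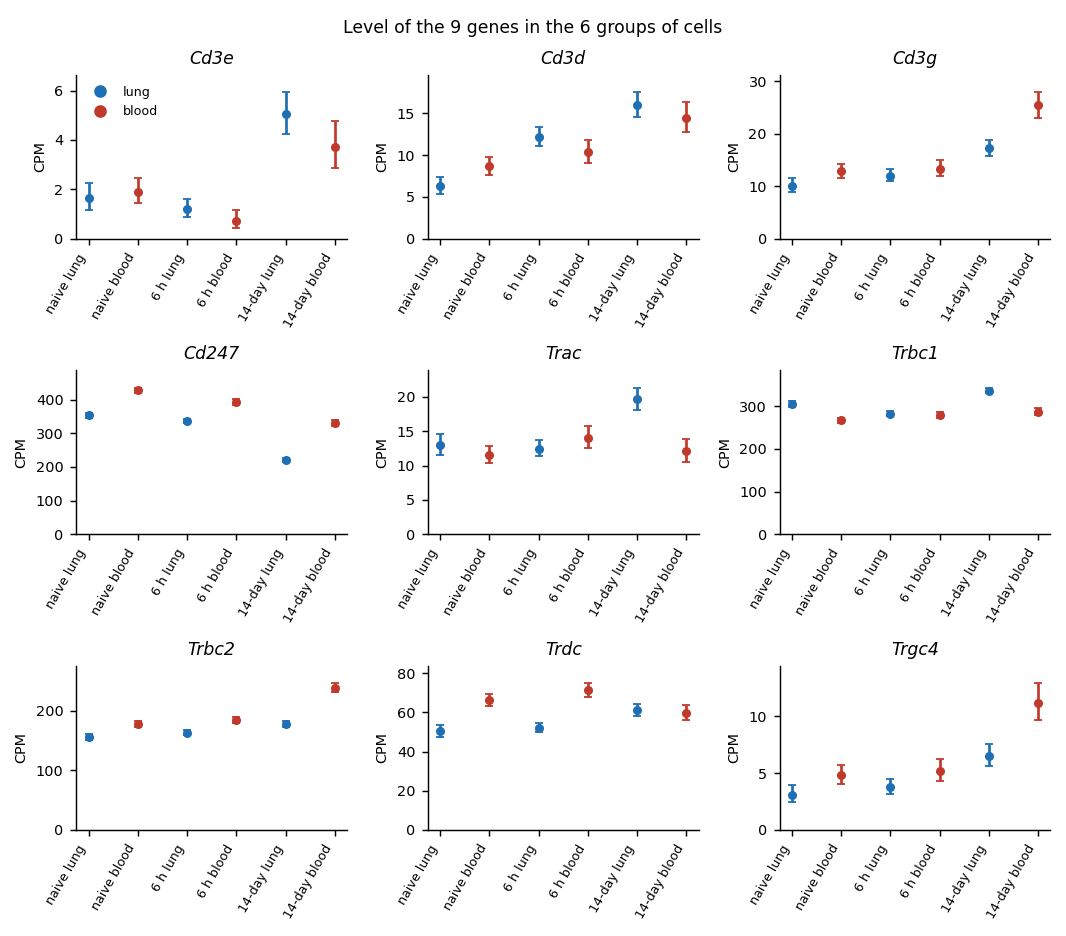
Level of each gene in CPM (vertical axes, each starting at 0) in lung (blue) and blood (red) of the 3 libraries, with exact Poisson 95% intervals. Cd247 was lowest in 14-day lung at 221 CPM, Cd3g highest in 14-day blood at 25.4 CPM, and Trgc4 highest in 14-day blood at 11.2 CPM.

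Transcripts of the CD3 genes were rare in these cells and concentrated in few of them. Cd3e had 1.66 CPM in naive lung, 1.90 in naive blood, 1.20 in 6 h lung, 0.725 in 6 h blood, 5.04 in 14-day lung and 3.72 in 14-day blood. It was highest in both 14-day groups, whose intervals (4.24 to 5.94 and 2.86 to 4.76) overlapped each other and stayed above those of the other 4 groups. Between 0.192% and 0.923% of cells had a Cd3e UMI. Since this is under 1% in each group, the 1% of cells with the most Cd3e UMIs necessarily held all of them.

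Cd3d had 6.31 CPM in naive lung, 8.67 in naive blood, 12.2 in 6 h lung, 10.4 in 6 h blood, 16.0 in 14-day lung and 14.5 in 14-day blood, with a UMI in 2.67% to 5.46% of cells. Cd3g had 10.1 CPM in naive lung, 12.8 in naive blood, 12.0 in 6 h lung, 13.4 in 6 h blood, 17.2 in 14-day lung and 25.4 in 14-day blood, with a UMI in 2.34% to 4.06% of cells. Both were lowest in naive lung, and for Cd3d naive lung did not overlap with the next group, while all later neighbours overlapped. In the ascending order of Cd3g, the intervals of neighbours overlapped from naive lung over 6 h lung and naive blood to 6 h blood, while 14-day lung (15.7 to 18.8) and 14-day blood (25.4, up to 27.9) stood apart from them and from each other. The top 1% of cells held 53.7% to 70.4% of Cd3d UMIs and 62.2% to 76.8% of Cd3g UMIs, against 4.88% to 6.44% of those of Cd247. Cd247 was found in many more cells. For Trgc4, found in 1.25% to 3.96% of cells, the top 1% held 50.5% to 87.7%.

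The share of cells with a UMI of each CD3 gene was above the share computed for free RNA at its limit. From markers of other cell types in nearly empty barcodes, free RNA made up at most 7.43% of counts in naive, 4.15% in 6 h and 2.84% in 14-day cells. At that limit it would give a Cd3e UMI to at most 0.130% of cells in a group, a Cd3d UMI to at most 1.01% and a Cd3g UMI to at most 0.747%. In nearly empty barcodes Cd3d stood at 19.97, 20.51 and 24.03 CPM (naive, 6 h and 14 days), above its level in cells of the same library. Cd3e stood there at 2.55, 1.88 and 3.74 CPM, above naive and 6 h cells, below 14-day lung and close to 14-day blood. Cd3g, at 14.7, 12.7 and 15.2 CPM, was above naive cells, between 6 h lung and 6 h blood, and below 14-day cells.

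Cd247, the zeta chain gene that NK cells use with NKp46, was found in 66.0% to 86.3% of cells. Its level was 354 CPM in naive lung, 428 in naive blood, 335 in 6 h lung, 394 in 6 h blood, 221 in 14-day lung and 331 in 14-day blood. Lung lay below blood in each library, and 14-day lung was the lowest of the 6 groups, with an interval of 215 to 226. The other neighbours in this order did not overlap either, apart from 14-day blood (322 to 340) and 6 h lung (329 to 341).

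Trbc1 and Trbc2, for the beta chain, were found in most and in many of the cells. Trbc1 had 305 CPM in naive lung, 266 in naive blood, 282 in 6 h lung, 278 in 6 h blood, 336 in 14-day lung and 287 in 14-day blood, in 70.5% to 78.5% of cells. Naive blood, 6 h blood, 6 h lung and 14-day blood overlapped with their neighbours in this order, and naive lung and 14-day lung stood above them. After thinning each cell to 3000 UMIs, 47.7% to 56.7% of cells still had one. In nearly empty barcodes Trbc1 stood at 703, 681 and 827 CPM (naive, 6 h and 14 days), above its level in cells, and at the limits given above free RNA could give it to 16.6% to 29.5% of cells. Trbc2 had 156 CPM in naive lung, 177 in naive blood, 163 in 6 h lung, 184 in 6 h blood, 177 in 14-day lung and 239 in 14-day blood, in 36.2% to 46.1% of cells. It was highest in 14-day blood (231 to 246), while naive blood overlapped with 14-day lung and 6 h blood, and naive lung with 6 h lung. Trbc2 too was above its level in cells in nearly empty barcodes, at 278, 238 and 249 CPM.

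Trdc, for the delta chain, was found in 23.5% to 35.9% of cells, at 50.4 CPM in naive lung, 66.2 in naive blood, 52.2 in 6 h lung, 71.3 in 6 h blood, 61.2 in 14-day lung and 59.8 in 14-day blood. Blood was above lung in the naive and 6 h libraries, and the 14-day groups overlapped with each other. Trac, for the alpha chain, was found in 6.64% to 11.2% of cells, at 13.0 CPM in naive lung, 11.6 in naive blood, 12.5 in 6 h lung, 14.0 in 6 h blood, 19.6 in 14-day lung and 12.0 in 14-day blood. It was highest in 14-day lung, with an interval of 18.0 to 21.3, and its other 5 groups overlapped with their neighbours. Trgc4 was found in 1.25% to 3.96% of cells, at 3.11 CPM in naive lung, 4.84 in naive blood, 3.76 in 6 h lung, 5.16 in 6 h blood, 6.53 in 14-day lung and 11.2 in 14-day blood. Nearly empty barcodes of the naive, 6 h and 14-day libraries held Trdc at 98.5, 89.6 and 99.3 CPM. Trac stood there at 22.4, 21.8 and 24.8 CPM and Trgc4 at 7.51, 5.49 and 13.6. These values were above those in cells of the same library, while Cd247, at 266, 259 and 211 CPM, was below. Of the gamma genes outside the chosen set, Trgc3 was at 0 in all groups, with upper limits of 0.103 CPM in 6 h lung to 0.218 in 14-day blood. Trgc1 or Trgc2 was found in 66 cells in all.

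Whether the constant genes went together in the same NK cell was read after thinning, in cells with fewer than 2 CD3 genes. In naive lung to 14-day blood, the correlation over cells of having a UMI lay between -0.034 and 0.041 for Trbc1 with Trbc2, Trdc, Cd247 and Trac and for Trbc2 with Trdc. In sparse counts such values say little about a link between the genes.

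Cells that detected 2 or more of Cd3e, Cd3d and Cd3g were then separated from the rest. They numbered 209 of 21113 cells, or 0.990% (exact binomial interval 0.861% to 1.13%). By group they were 22 cells in naive lung (0.598%), 39 in naive blood (0.893%), 36 in 6 h lung (0.769%), 31 in 6 h blood (1.13%), 55 in 14-day lung (1.54%) and 26 in 14-day blood (1.26%). The interval of 14-day lung, 1.16% to 2.00%, lay above that of naive lung, 0.375% to 0.905%, while those of 14-day blood, 0.822% to 1.84%, and naive blood, 0.636% to 1.22%, overlapped. All 3 genes were detected in 9, 11, 8, 7, 27 and 11 cells in the same order, which is 0.755% of cells (0.498% to 1.10%) in 14-day lung against 0.245% (0.112% to 0.464%) in naive lung. With every cell thinned to 3000 UMIs, the share with 2 or more CD3 genes was 0.390% in naive lung and 0.876% in 14-day lung.

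**Figure D2:**
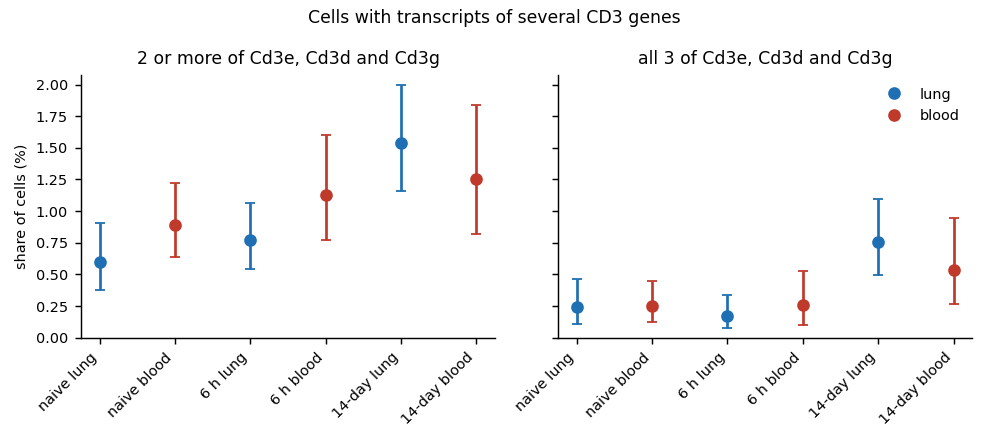
Share of cells (vertical axes, from 0) in which 2 or more of Cd3e, Cd3d and Cd3g (left) or all 3 of them (right) had a UMI, in lung (blue) and blood (red), with exact binomial 95% intervals. The share with all 3 genes was 0.755% in 14-day lung and 0.171% to 0.532% in the other groups.

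Cd3d was detected in all 209 of these cells and Cd3g in 205. The combinations were Cd3d with Cd3g in 132 cells, Cd3e with Cd3d in 4, Cd3e with Cd3g in none, and all 3 in 73. Cd3e was found in 85 cells in all, and in 8 of them alone, each time with 1 UMI. Cd3d was found alone in 626 cells and Cd3g alone in 460. The 209 cells held 43.2% to 72.4% of all CD3 UMIs of a group and were deeper than other cells, with a median of 8656 to 11585.5 UMIs by group against 5889.5 to 7496. In 33 of them the CD3 genes had only 2 UMIs in sum.

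**Figure D3:**
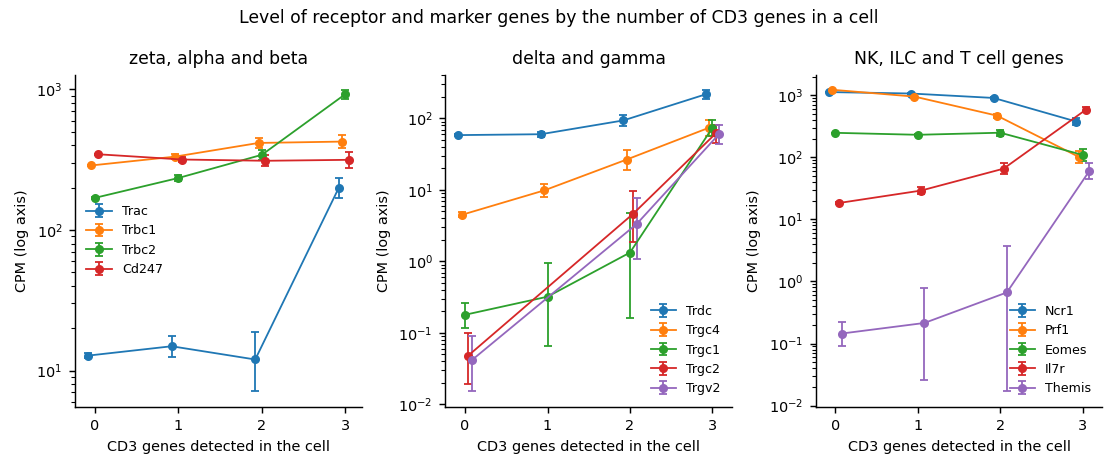
Level in CPM (log axes) of receptor genes and of marker genes in cells with 0, 1, 2 or 3 of Cd3e, Cd3d and Cd3g detected (19810, 1094, 136 and 73 cells over all groups), with exact Poisson 95% intervals, and with points at 0 left out. Trac was at 12.0 CPM in cells with 2 CD3 genes and at 199 in cells with 3.

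Cells with 2 CD3 genes and cells with all 3 differed in their receptor transcripts, a split made after the values had been seen. Trac had 12.8 CPM in the 19810 cells without a CD3 gene, 14.9 in the 1094 cells with 1, 12.0 (7.11 to 18.9) in the 136 cells with 2, and 199 (169 to 233) in the 73 cells with 3. The intervals for 1 and 2 CD3 genes held the level of cells with none, while that for all 3 lay above it. In 6 h blood Trac was at 25.6 CPM (37 UMIs) in cells with 1 CD3 gene and at 13.3 in those with none. Trac was found in 68.5% of cells with all 3 genes and in 8.09% of those with 2. By group it stood at 64.4 to 289 CPM in cells with all 3, lowest in 6 h blood with 3 UMIs in 7 cells. The other receptor genes were already higher in cells with 2. Trbc2 went from 169 CPM without a CD3 gene to 234, 342 and 926 with 1, 2 and 3, Trdc from 58.5 to 60.2, 93.9 and 218, and Trgc4 from 4.48 to 9.86, 26.6 and 74.4. Trbc1 had 288, 332, 416 and 425 CPM, and Cd247 345, 317, 310.4 and 315, so that the zeta chain gene differed little. The share of cells with a UMI fell from 2 to 3 CD3 genes for Trdc (48.5% to 34.2%) and Trbc1 (90.4% to 65.8%). It rose for Trbc2 (61.0% to 95.9%) and Trgc4 (15.4% to 39.7%). By group, Trdc in cells with all 3 stood at 68.1 CPM in naive blood to 816 in 6 h blood, the latter from 38 UMIs in 7 cells.

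The cells with all 3 genes also had higher levels of other gamma constant genes, which were rare in the remaining cells. Trgc1 stood at 74.4 CPM and Trgc2 at 61.8 in them, against 0.179 and 0.0483 in cells without a CD3 gene. The variable segment Trgv2, which is joined to a gamma constant gene in a rearranged chain, had 60.5 CPM in cells with 3 CD3 genes and 3.33 in those with 2. It was found in 33 cells of all 21113, of which 27 had 2 or more CD3 genes. Of the 33 cells, 21 had Trgc1 or Trgc2, 17 had Trdc, 14 had Trac and 29 had Ncr1. By group the 33 were 2 cells in naive lung, 6 in naive blood, 5 in 6 h lung, 1 in 6 h blood, 10 in 14-day lung and 9 in 14-day blood.

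Over all 209 cells against the other 20904, 4 of the 6 genes that the split did not use had a log2 ratio of CPM of at least 1, against 2.55% of 8244 genes at this ratio or higher. Trgc4 had a log2 ratio of 3.17 (2.85 to 3.47), Trac 2.57 (2.34 to 2.79), Trbc2 1.65 (1.57 to 1.73) and Trdc 1.22 (1.06 to 1.39). With 4.81 CPM in the other cells, Trgc4 met the minimum of 10 CPM only through the 209 cells. Trbc1 was at 0.53 and Cd247 at -0.14, the latter equal to the median of all genes. All 6 groups had Trgc4, Trbc2, Trdc and Trbc1 higher in these cells, and 5 groups had Trac higher. For Trdc the interval in 6 h lung, -0.32 to 0.81, spanned both signs. Those of Trbc1 did so in 6 h lung (-0.11 to 0.39) and 6 h blood (-0.06 to 0.50). In 6 h blood Trac was at -0.63 (-2.92 to 0.93).

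By combination, 85 of the 209 cells had UMIs of alpha or beta genes without delta or gamma genes, 2 had delta or gamma genes alone, 119 had both kinds and 3 had neither. In the other cells these counts were 11971, 820, 5643 and 2470. An alpha and a beta transcript were found together in 28.7% of cells with 2 or more CD3 genes (22.7% to 35.4%) and in 6.86% of other cells. A delta and a gamma transcript were found together in 16.3% (11.5% to 22.0%) and in 0.378%. Since Trbc1, Trbc2 and Trdc were common in cells without CD3 transcripts, these combinations do not identify a receptor by themselves.

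Variable segments, which are among the parts of the receptor genes that rearrangement joins, were counted as well. Of 144 such genes in the files, at least 1 was found in 46.9% of cells with 2 or more CD3 genes and in 30.2% of the others. In the others, Trdv2-2 with 4988 and Trdv4 with 3205 of 8381 UMIs made up nearly all. In the cells with CD3 transcripts Trgv2 led with 53 UMIs, followed by Trdv2-2 with 33 and Trdv4 with 28. Trgv1 had 11 UMIs in them against 30 in the other cells. Trdv2-2 had 5.04 CPM in cells with 3 CD3 genes, 19.3 in those with 2 and 32.5 in those with none.

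Most cells with 2 or more CD3 genes had transcripts of the receptors used for the sort, at a lower level than other cells. Ncr1 was found in 91.4% of them, at 727 CPM against 1129.5 in other cells and a log2 ratio of -0.64 (-0.71 to -0.57), and Klrb1c in 96.2%, with a ratio of -0.75 (-0.82 to -0.68). Both were lower in 6 of 6 groups. Of 15 NK cell genes, 7 had a log2 ratio of -1 or below, against 2.28% of 8244 genes, and none of 1 or more. The first were Prf1, the gene of perforin, at -1.82, the egress receptor S1pr5 at -1.74, Irf8 at -1.61, the granzyme gene Gzma at -1.59 and Gzmb at -1.30. The median over the list was -0.99 against -0.14 over all genes. Klra7 of this list went the other way, at 0.28 (0.21 to 0.35), and was higher in 6 of 6 groups. It was found in 74.6% of the cells with 2 or more CD3 genes and in 62.8% of the others. From cells with 2 to cells with 3 CD3 genes, Prf1 went from 472 to 101 CPM, Eomes from 250.4 to 110 and Ncr1 from 910.5 to 380, and Ncr1 was found in 79.5% of the cells with 3.

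Of 9 ILC1 genes at 10 CPM or more, 7 had a log2 ratio of at least 1, against 2.55% of 8244 genes. Il7r, the interleukin-7 receptor gene, was at 3.70, Gpr183 at 2.91, the lymphotoxin gene Ltb at 2.64, Cxcr6 at 2.54 and Tnfsf10 at 2.27. Tmem176b was at 0.90, and Rora was at -0.32 and lower in 5 of 6 groups. Of the genes past 1, Gpr183, Cxcr6 and Cd200r1 reached 10 CPM only in the 209 cells. They had 8.65, 4.34 and 6.16 CPM in the other cells. Il7r was found in 74.0% of cells with 3 CD3 genes and in 15.4% of those with 2. Of 9 T cell genes at 10 CPM or more 5 had a ratio of at least 1, against the same 2.55% of genes. They were Themis at 7.16, Camk4 at 2.95, Bcl11b at 2.36, Tcf7 at 1.68 and Cd28 at 1.60. Themis and Bcl11b reached 10 CPM only in the 209 cells, with 0.149 and 7.97 CPM in the others. Defining T cell genes were found in few of the 209 cells but more often than in the others. Cd8a was found in 2.87% against 0.00478% of cells (20 UMIs against 1), Cd5 in 4.78% against 0.105%, Cd6 in 3.35% against 0.297% and Cd4 in 0.478% against 0.00957%. None of these reached 10 CPM, and the log2 ratio was 5.57 (4.59 to 6.53) for Cd5 and 3.30 (2.29 to 4.18) for Cd6. CD5 was among the antibodies of the sort, as were CD3ε and TCRβ. Il7r and Tcf7 are used by T cells and by other innate lymphoid cells alike, so that these lists overlap in what they mark.

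None of the 17 genes of T cell receptor signalling at 10 CPM or more differed by 1 in log2 in either direction, and their median was 0.16. Lck, the kinase that phosphorylates the CD3 chains, was at 0.26, the zeta-associated kinase Zap70 at 0.34 and its relative Syk at -0.66. Among the partners of the zeta chain and other adaptors, none of 6 genes passed 1 in either direction. Fcer1g was at -0.56 and Tyrobp at -0.38. Of the gamma-delta T cell genes only Maf reached 10 CPM, at -0.15, and the others were too rare in all cells to be compared. Of the NKT cell genes 1 of 2 at 10 CPM, Slamf6, was higher at 2.87, and with 9.98 CPM in the other cells it reached 10 CPM only in the 209 cells. The other, Zbtb16, was at -0.25 (-0.61 to 0.085), with a UMI in 15.3% of the 209 cells and 18.3% of the others. Ighm, a B cell gene, was at 1.03, and Cd79b, with 4 UMIs in the 209 cells, at 1.14 (-0.76 to 2.53). Cd79a and Ms4a1 had no UMI in them, which allows a log2 ratio of up to 3.30 and 2.49. Lyz2, of myeloid cells, was at -4.28 (-6.56 to -2.73) with 3 UMIs, and no red blood cell gene reached 10 CPM. Pecam1, the endothelial gene at that level, was at -0.16, and the epithelial genes Epcam and Cdh1 were at 4.28 and 3.85 with UMIs in 11.0% and 6.22% of the 209 cells, while Krt8 and Sftpc had no UMI in them. Epcam and Cdh1 reached 10 CPM only in the 209 cells, with 0.583 and 0.849 CPM in the others. Epcam was higher in 5 of 6 groups, while Cdh1, with 28 UMIs in 13 of the 209 cells, was higher in 3 and lower in 3. The part of other cell types in the values was not tested.

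The 10 genes with the largest ratio in cells with 2 or more CD3 genes, among genes higher in all 6 groups, were Trgv2 at 9.21, Trgc2 at 9.07, Themis at 7.16, Trgc1 at 7.14, Dpp4 at 5.65, Nsg2 at 5.57, Gpr55 at 5.43, Slfn1 at 4.81, Adam19 at 4.60 and Ccdc136 at 4.37. All 10 reached 10 CPM only in these cells. Trgv2 rested on 53 UMIs against 6, and Trgc2 on 56 against 7. Dpp4, which encodes the surface peptidase CD26, was found in 18.7% of these cells and 0.368% of the others.

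Cd3g was also found at high counts without the other CD3 genes, in 59 cells with 5 or more Cd3g UMIs and no Cd3d or Cd3e UMI, up to 27 UMIs in a cell. These were 4 cells in naive lung, 9 in naive blood, 11 in 6 h lung, 8 in 6 h blood, 9 in 14-day lung and 18 in 14-day blood, so that 14-day blood, the group with the fewest cells, held the most. All 59 had Ncr1 UMIs. Trgc4 was found in 18.6% of them and in 2.42% of the 248 cells with 1 Cd3g UMI alone, and their Trbc2 level was 513 CPM against 208. Transcripts of 2 or more of the ILC1 genes Cxcr6, Tmem176a and Tmem176b were found in 15.3% of the 59 and 1.21% of the 248. Of the 248 cells, 24 came from 14-day blood, the group in which Trgc4 and Trbc2 were highest in all cells. These values are pooled over groups, and the part of the mix of groups in them was not tested.

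Cells split by UMIs of Cd27 and Itgam (the gene of CD11b), which mark stages of NK cell maturation, differed in CD3 transcripts. The split was chosen after the values had been seen. Among NK cells, those with Cd27 and without CD11b are the less mature ones. T cells or ILC1 with the same transcripts were not told apart from NK cells here, and their part was not tested. In cells with Cd27 and no Itgam UMI, 2 or more CD3 genes were detected in 5.00% of cells in naive lung, 4.76% in naive blood, 4.68% in 6 h lung, 3.85% in 6 h blood, 5.18% in 14-day lung and 8.88% in 14-day blood. In cells with Itgam and no Cd27 UMI, the shares were 0.177%, 0.303%, 0.112%, 0%, 0.417% and 0.165%. The interval of the 0 of 1505 cells in 6 h blood reached 0.245%. The intervals of both stages did not overlap in any of the 6 groups.

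**Figure D4:**
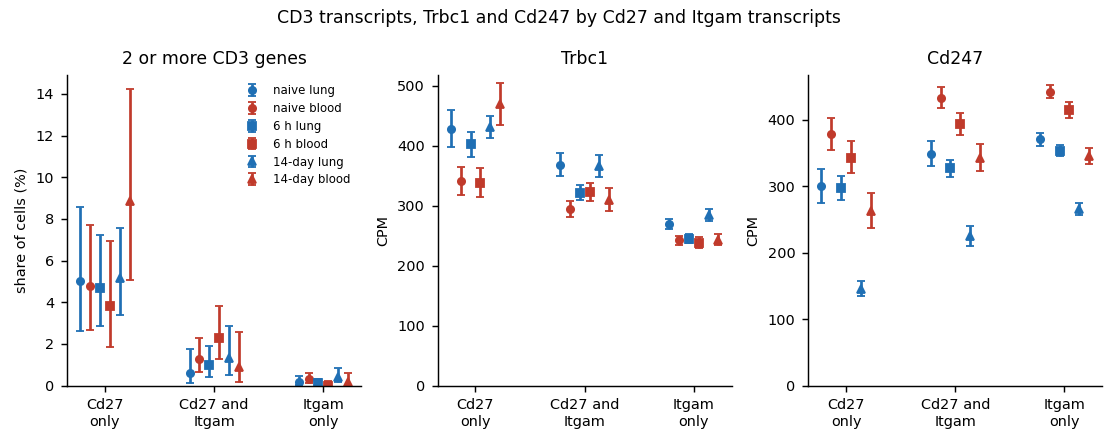
Share of cells with 2 or more CD3 genes and levels of Trbc1 and Cd247 (CPM) in cells with Cd27 UMIs alone, with both, and with Itgam UMIs alone, in lung (blue) and blood (red) of the naive (circles), 6 h (squares) and 14-day (triangles) libraries, with exact 95% intervals. In each group Trbc1 was higher and Cd247 lower in cells with Cd27 alone than in cells with Itgam alone.

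Trbc1 was higher in the cells with Cd27 alone in every group, at 429, 341, 402, 338, 431 and 469 CPM against 270.1, 243, 245, 238, 284 and 244 in cells with Itgam alone, in the order of groups used before. Cd247 was lower, at 299, 378, 297, 343, 146 and 263 CPM against 370.0, 442, 353, 414, 265 and 345. Within each stage Cd247 was lower in 14-day than in naive lung, at 265 against 370.0 CPM in cells with Itgam alone. Trac stood at 34.7 CPM in cells with Cd27 alone in 14-day lung and at 12.7 to 18.0 in the other 5 groups.

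Cells with 2 or more of Cxcr6, Tmem176a and Tmem176b, genes of ILC1, numbered 17 in naive lung, 16 in naive blood, 34 in 6 h lung, 23 in 6 h blood, 80 in 14-day lung and 55 in 14-day blood. Trgc4 stood at 114, 109, 121, 172, 74.0 and 167 CPM in them, against 3.11 to 11.2 in all cells. Trdc stood at 10.1 to 31.2 CPM in them. Its intervals in naive lung (4.40 to 62.3) and naive blood (8.49 to 79.8) held the levels of all cells, 50.4 and 66.2. In the other groups they lay below the level of all cells. Cd247 stood at 89.3 CPM in these cells of 14-day lung, the lowest value in that split. Cells with 2 or more CD3 genes were 4 of the 80 cells in 14-day lung and 2 of the 55 in 14-day blood, and none in the 4 other groups, where few cells were counted.

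The 14-day cells were set against naive cells to ask how the genes stood in lungs and blood with tumor. In lung, Cd3d had a log2 ratio of 1.34 (1.07 to 1.62). With 6.31 CPM in naive lung it met the minimum of 10 CPM only through 14-day lung. Of the 7 genes with 10 CPM or more in the higher group it was the 1 that passed 1, against 1.73% of 8108 genes, and none was lower by that much (1.84% of genes). Cd3e at 1.60 (1.08 to 2.15) and Trgc4 at 1.07 (0.67 to 1.48) were below the minimum in both groups, so that 3 of 9 genes passed 1 when no minimum was set. Cd3g was at 0.77 (0.54 to 1.00). Cd247 was lower by a log2 ratio of -0.68 (-0.73 to -0.63), and Trac was higher by 0.59, which was 0.51 without the cells with CD3 transcripts. Trbc1, Trbc2 and Trdc were at 0.14, 0.18 and 0.28, and the median of all genes was -0.19. The ratio of Cd3d was 1.06 without the 5% of cells with the most UMIs and 0.93 with every cell thinned to 3000 UMIs. Of the ILC1 genes at 10 CPM or more, 5 of 8 were at 1 or more, with a summed level of 395 CPM against 203. So were the 3 red blood cell genes at 10 CPM or more, which met this minimum only through 14-day lung. In 6 h over naive lung 5 ILC1 genes met it, so some of the 8 met it only through 14-day lung. The part of ILC1 and red blood cell genes in the ratios was not tested.

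In blood, Trgc4 was at 1.21 (0.89 to 1.54), and it met the minimum of 10 CPM only through 14-day blood, with 4.84 CPM in naive blood. Of 8 genes at the minimum it was the 1 past 1, against 0.123% of 8117 genes, and none was lower by that much (0.136%). The ratio of Trgc4 was 1.29 without the cells with 2 or more CD3 genes, which were not chosen by this gene. Cd3e, below the minimum, was at 0.97, Cd3g at 0.98 (0.78 to 1.19) and Cd3d at 0.74 (0.48 to 1.00). Cd247 was at -0.37 and Trbc2 at 0.43, Trbc1 at 0.11, Trac at 0.06 and Trdc at -0.15, with a median of -0.15 over all genes. Of the ILC1 genes 3 of 8 were at 1 or more, with a summed level of 218 CPM against 149.5, and their part was not tested. In 6 h over naive blood 4 ILC1 genes met the minimum, so some of the 8 met it only through 14-day blood. Cd3g, just under the limit of 1, was at 1.02 to 1.35 under 6 of the alternative settings.

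**Figure D5:**
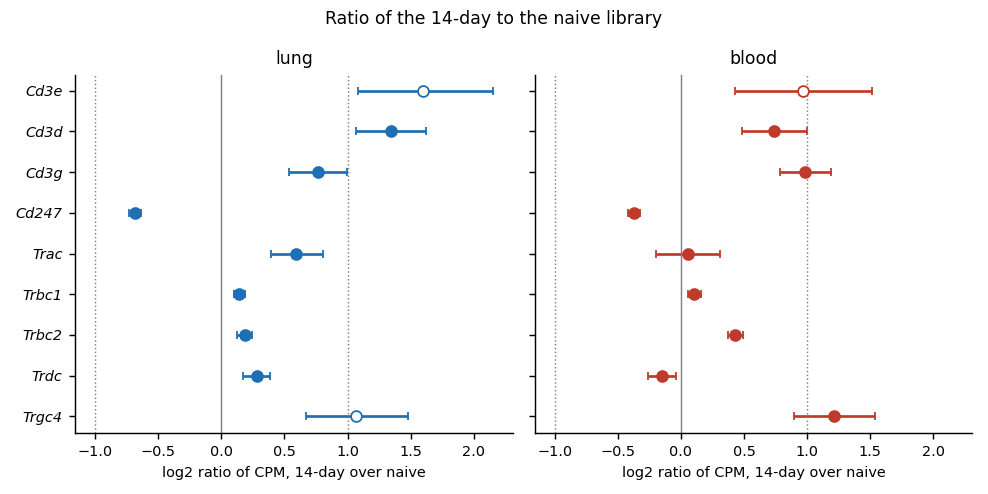
Log2 ratio of CPM of the 14-day over the naive library in lung (left) and blood (right), with exact conditional 95% intervals, and open circles where the gene was below 10 CPM in both groups. The dotted lines mark a ratio of 1 in either direction, which Cd3d in lung (1.34) and Trgc4 in blood (1.21) passed among genes at 10 CPM or more.

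At 6 h, none of the 7 genes at 10 CPM or more passed 1 in either direction against naive cells, and of all genes 0.0624% were higher and 0.0% lower by that much in lung (8007 genes), and 0.0739% higher and 0.0123% lower in blood (8114 genes). Cd3d was at 0.95 (0.68 to 1.23) in lung and 0.26 in blood. The other genes at 10 CPM or more lay between -0.12 and 0.28. Below that level, Cd3e was at -0.47 (-1.13 to 0.19) in lung and at -1.39 (-2.29 to -0.57) in blood, and Trgc4 at 0.27 and 0.09. Of the T cell receptor signalling genes, none of 17 passed 1 at 6 h in either tissue. At 14 days none of 17 passed in blood, and the median of the list was -0.38 in lung and -0.31 in blood.

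Between lung and blood of a library, none of these genes at 10 CPM or more passed 1. Of all genes, 3.28% were higher and 0.585% lower in naive lung, 3.07% and 0.428% in 6 h lung, and 2.94% and 0.494% in 14-day lung. Trdc was lower in lung at -0.39 in the naive and -0.45 in the 6 h library and was at 0.03 in the 14-day library. Cd247 was lower in lung at -0.27, -0.23 and -0.58. Trac was at 0.17 (-0.06 to 0.39), -0.17 (-0.38 to 0.04) and 0.70 (0.47 to 0.94). In the 14-day library Cd3g was at -0.56 (-0.75 to -0.37) and Cd3d at 0.14. Trgc4 was at -0.78 there, and at -1.06 to -1.16 under 3 alternative settings.

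Over the 6 groups, the summed level of Cd3e, Cd3d and Cd3g was 18.1 CPM in naive lung, 23.4 in naive blood, 25.4 in 6 h lung, 24.5 in 6 h blood, 38.2 in 14-day lung and 43.6 in 14-day blood. In a sum of this kind more cells with a transcript and more transcripts per cell cannot be told apart. The 5 genes with the pattern most like it, by Pearson correlation of log2 CPM over 6 groups of 3 libraries among 8417 genes, were 2310009B15Rik (0.990), Cox4i1 (0.987), Trappc6a (0.985), Mpg (0.980) and Scand1 (0.979). Trgc4 was at 0.920, Trbc2 at 0.785, Trac at 0.355, Trbc1 at 0.317, Trdc at 0.241 and Cd247 at -0.594. The groups share libraries, so these values describe 6 points and were not tested.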

How the data were processed

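Single-cell libraries of sorted NK cells (10x Genomics 3′ chemistry) were analysed from 3 time points. For each barcode, called as a cell or not, the authors deposited raw counts of UMIs for genes and hashtags. Cell Ranger produced them (version 7.0.1 in the labels, 7.1.0 in the file headers) on GRCm38.p6 without normalization, and the submitters' processing notes also name Seurat 5.0.

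Barcodes were kept with 800 to 5000 genes and at most 6% mt- counts. Tissue was assigned where a hashtag held at least 90% of tag counts, and 342, 158 and 141 barcodes of the naive, 6 h and 14-day libraries with neither tag at that share were left out. No doublet caller was run. Counts were summed per group and scaled to CPM. Intervals were exact, Poisson for CPM, Clopper-Pearson for shares and conditional on the sum for ratios. A log2 ratio was counted from 1 on where the higher of the groups had 10 CPM or more. Genes at 0 counts were set to 3 counts for counts over all genes. Free RNA was read from barcodes with at most 100 counts. The members and gene lists were chosen with earlier results of these data known. Beside the members, list genes past the ratio, the 10 largest ratios and the 5 most similar patterns were named, and further list genes were named after their values were seen. The scripts were tested on simulated data. Splits by stage, by ILC1 genes and by number of CD3 genes were chosen after seeing the data. Doublets within a tissue could stay in. Positions came from GENCODE M21, another release than the one used for counting. Promoters were matched for 4 of 9 members. Python 3.11.15, numpy 2.4.6, scipy 1.17.1, pandas 2.3.3 and Biopython were used. Alternatives changed the cell filter, hashtag split, deepest cells, depth, free RNA, totals, weights and the definition of a cell with CD3 transcripts. A few genes of the lists are not reported here.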

Additional observations from a re-analysis of the deposited data

Results flagged for a closer look

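Cells with both hashtags, left out of the report, also held cells with 2 or more CD3 genes. These were 4 of 342 in the naive library (1.17%, interval 0.320% to 2.97%), 5 of 158 in the 6 h library (3.16%, 1.04% to 7.23%) and 4 of 141 in the 14-day library (2.84%, 0.778% to 7.104%). Any count above 3 lies above what a count of 0 allows, which is what singled them out. In cells with a single tag the shares were 0.598% to 1.54%, and the intervals of the naive, 6 h and 14-day libraries each held at least 1 of the shares of their own tissues. Their median depth was 11721.5, 14811 and 15177 UMIs, above that of cells with a single tag, and the part of depth in these shares was not tested.

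The log2 ratios of Trdc and Trbc1 had opposite signs in lung and blood. That of Trdc in 14-day over naive cells was 0.28 in lung and -0.15 in blood, where the median of all genes was -0.19 and -0.15, so that Trdc in blood was at the median. That of Trbc1 in 6 h over naive cells was -0.11 in lung and 0.062 in blood, where the medians were -0.07 and -0.06. With 1 library per time point, neither difference was tested, and each interval covers counting error alone.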

How the results depend on the processing

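The cell filter (500 to 6000 genes and at most 10% mitochondrial counts) and hashtags split at the Otsu threshold moved no level, share or ratio beyond its interval. Subtracting free RNA at its limit moved 11 of 54 levels, thinning 23, leaving out the 5% of cells with the most UMIs 7, a mean over cells 14, and totals without mitochondrial and ribosomal protein genes 48. No called value changed its sign. In each of these settings 4 of the 6 genes outside the CD3 definition had a log2 ratio of 1 or more in cells with 2 or more CD3 genes.

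The share of such cells depended on their definition. In the order naive lung, naive blood, 6 h lung, 6 h blood, 14-day lung and 14-day blood, it was 0.390%, 0.396%, 0.409%, 0.587%, 0.876% and 0.727% after thinning to 3000 UMIs. With at least 1 CD3 gene it was 4.43%, 5.43%, 6.45%, 6.99%, 6.63% and 8.31%, and with all 3 it was 0.245%, 0.252%, 0.171%, 0.255%, 0.755% and 0.532%. With 2 or more UMIs in sum it was 1.61%, 1.97%, 2.26%, 2.37%, 3.10% and 3.58%, and with 2 or more of 4 genes, Cd247 included, 3.51%, 4.83%, 5.36%, 6.19%, 5.01% and 7.06%.

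The ratio of Cd3d in 14-day over naive lung was 1.06 without the 5% of cells with the most UMIs and 0.93 after thinning, and the cause was not tested. That in 6 h over naive lung was 1.18 with free RNA subtracted, and that of Cd3g between lung and blood at 14 days was -1.04 after thinning. No paired analysis was possible because each time point had 1 library and no result came from a test. The depth and the single library per time point limit all ratios to a description of these libraries.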
